A study of Mus musculus with 6 samples.

Results

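The expression of 8 genes that make, break down or bind hyaluronan was followed through 6 RNA-seq libraries of mouse RM1 prostate cancer cells. They are the 8 listed symbols Cemip, Has1, Has2, Has3, Hyal1, Hyal2, Cd44 and Hmmr, out of 23791 named genes in the deposited count table. The genes were chosen by symbol, with the Cemip counts of the labelled line against its parent already known, so the values that separate the labelled line from its parent are given as a description, without a test. All 8 passed the filter on low counts.

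RM1 is a mouse prostate cancer cell line of the C57BL/6 strain. The unlabelled parent RM1 and the labelled line RM1536 were each sequenced from culture as a pair of libraries, a and b. RM1536 cells taken back from a femur gave 1 library, called bone, and those taken back from the lung gave another. RM1536 is RM1 labelled with eCFP, which fluoresces, and luc2, a luciferase, and it pools clones 5, 3 and 6. The bone and lung cells came from 1 mouse at day 16 after PKH26-stained RM1536 cells were injected into the heart, and were the PKH-negative cells, which had lost the dye by dividing. Cells were sorted and then grown in DMEM with 5% FBS until a flask was 85% covered, so bone and lung denote where cells came from, not the tissue they were in when RNA was taken. The animal's age is not given, and whether a and b are separate cultures is not stated. The p-values therefore measure only the spread between the culture duplicates, which may be technical, and none covers the spread between animals.

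Hyaluronan is a long, unsulfated sugar chain of the extracellular matrix. The synthases HAS1, HAS2 and HAS3 spin it out through the plasma membrane from UDP-glucuronic acid and UDP-N-acetylglucosamine. CEMIP and the hyaluronidases HYAL1 and HYAL2 take part in cutting it into shorter chains, and CD44 and HMMR (also called RHAMM) bind it. Long and short chains are known to act differently on cells, and prostate tumours are among those in which the pathway has been studied.

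Libraries held 22763835 to 30303566 counts, and 3 counts, the limit that 0 counts allow, equal 0.099 to 0.132 CPM, the counts in every 1e6. Levels below are CPM after TMM scaling unless a sentence says otherwise. The prostate epithelial markers Krt8 (990 to 2367 CPM over total counts) and Krt18 (280 to 469) were present in all 6 libraries, while Hoxb13 had 0 reads in all 6. Of 14 leukocyte markers, 13 had an entry and summed to 4.69 to 46.7 CPM over total counts, mostly Cd68, with Ptprc at 0 to 2 reads. The 8 fibroblast and stromal markers summed to 642 to 1392, mostly Col3a1 except in lung, where Col1a1 (569) exceeded Col3a1 (389). In these bulk libraries, fewer cells of a kind and less RNA per cell cannot be told apart.

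Cemip codes for a hyaluronan-binding protein needed for hyaluronan breakdown at the cell surface. It lies on chromosome 7 (GRCm38, 83932857 to 84086502, minus strand). It had 2 and 1 reads in the RM1 pair, 245 and 89 in the RM1536 pair, 2390 in the bone library and 564 in the lung library. In CPM these were 0.0668 and 0.0354, 9.86 and 2.88, 105 and 22.3. Both RM1 libraries sat at or below the 3-count limit, both RM1536 libraries lay above both of RM1, and both recovered libraries lay above every cultured one. The fitted log2 difference of RM1536 from RM1 was 6.82 ± 0.90 (SE, n = 2 and 2). It was 5.66 without RM1536 replicate a, 7.43 without RM1536 replicate b, 7.28 without RM1 replicate a and 6.47 without RM1 replicate b. Pooled over libraries, RM1536 had 116 times the Cemip of RM1 (exact 95% counting interval 39.4 to 566), bone 2036 times (696 to 9878) and lung 432 times (147 to 2100). These intervals cover counting error only.

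Cemip is shown here with the 250 bases before its RefSeq start, because no other listed gene differed as much between the lines. The window is chr7:84086506-84086755 on GRCm38.p6, minus strand, printed 5′ to 3′ in the gene's direction, and capitals mark TATAAA and the reverse complement of GGGCGG.
Cemip: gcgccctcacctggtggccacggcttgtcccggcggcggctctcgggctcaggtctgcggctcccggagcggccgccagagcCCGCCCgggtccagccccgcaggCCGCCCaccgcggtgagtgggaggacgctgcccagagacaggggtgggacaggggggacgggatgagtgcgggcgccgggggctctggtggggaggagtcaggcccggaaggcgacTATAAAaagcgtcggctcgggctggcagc
TATAAA lies 29 to 24 bases before the start and occurs on either strand in 12.4% of 32851 RefSeq promoter windows of this length. GGGCGG occurs on the opposite strand here, at 168 to 163 and 145 to 140 bases before the start, and in 32.7% of windows. The window is 75.2% G and C, against a median of 52.4% (quartiles 45.2% and 61.2%). The match to these letters is a description and no measure of binding.

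The bone library held more Cemip than either cultured RM1536 library, by 10.6 times against a and 36.4 times against b. The log2 fold change of bone against RM1536 was 4.05 ± 0.64 (SE, n = 1 and 2), with an adjusted p of 0.103 in edgeR's quasi-likelihood test over 13832 genes, which does not pass 0.05. Cemip passed with DESeq2 (adjusted p = 9.41e-07), which called 369 genes over all where edgeR called 2. It also passed in edgeR with no filter on low counts (adjusted p = 4.36e-26), a setting that called 859 genes over all. Without RM1 replicate b the edgeR log2 value was again 4.05. Without RM1536 replicate a the log2 value was 5.19, and without replicate b 3.41. RM1536 a held 3.42 times as much Cemip as b, a gap wider than that of 98.4% of 9876 genes at a mean of at least 5 CPM. Lung stood 1.81 ± 0.63 above RM1536 on the log2 scale (edgeR adjusted p = 0.33), 2.98 without RM1536 replicate a and 1.20 without replicate b. Bone stood 2.24 ± 0.77 above lung (edgeR adjusted p = 0.537), a ratio of 4.71 with a counting interval of 4.3 to 5.18. The coding genes on either side did not follow Cemip: Abhd17c had 1031 to 1757 reads and Mesd (Mesdc2 in the table) had 1396 to 2136 over the 6 libraries.

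**Figure D1:**
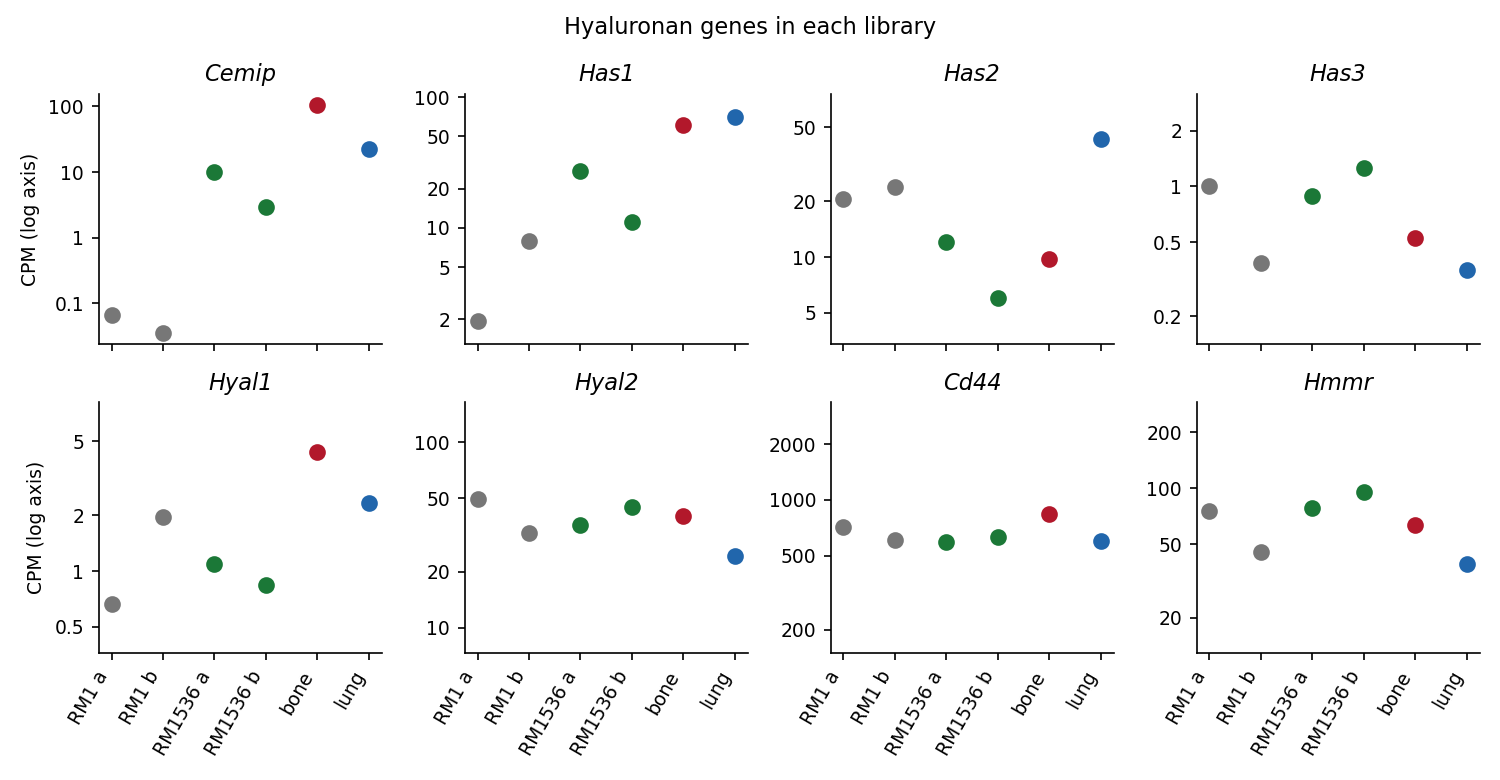
CPM of each of the 8 genes (vertical log axis, its range set per panel) in the 6 libraries, 1 point per library, grey for RM1, green for RM1536, red for bone and blue for lung. Cemip runs from 0.0354 CPM in RM1 b to 105 in bone, whereas Cd44 stays between 596 and 843.

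The synthases did not move as a group. Has1 and Has2 separated RM1536 from RM1 in opposite directions, and Has3 had 9 to 39 reads in each library.

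Has1 (chromosome 17, 17843323 to 17855205, minus strand) had 58 and 223 reads in the RM1 pair, 679 and 347 in the RM1536 pair, 1390 in the bone library and 1797 in the lung library. These were 1.94 and 7.9 CPM, 27.3 and 11.2 CPM, 61 CPM and 70.9 CPM. The groups did not overlap: RM1 was lowest, RM1536 came next, and the recovered cells were highest. The fitted log2 difference of RM1536 from RM1 was 1.97 ± 0.71 (SE, n = 2 and 2). The RM1 duplicates differed 4.07-fold, and the log2 difference was 3.31 without RM1 replicate b, 1.25 without RM1 replicate a and 1.16 without RM1536 replicate a. Bone stood 1.66 ± 0.79 above RM1536 (edgeR adjusted p = 0.588) and lung 1.88 ± 0.79 above it (edgeR adjusted p = 0.37), and neither passed. With RM1536 replicate a left out these were 2.45 and 2.69, and with RM1536 replicate b left out 1.16 and 1.40. Bone and lung differed by -0.22 ± 0.95 (edgeR adjusted p = 0.97).

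The Has1 promoter window is printed because Has1, like Cemip, was lowest in RM1 and highest in the recovered libraries. It is chr17:17855189-17855438 on GRCm38.p6, minus strand, with capitals at TGACGTCA, the full cyclic AMP response element.
Has1: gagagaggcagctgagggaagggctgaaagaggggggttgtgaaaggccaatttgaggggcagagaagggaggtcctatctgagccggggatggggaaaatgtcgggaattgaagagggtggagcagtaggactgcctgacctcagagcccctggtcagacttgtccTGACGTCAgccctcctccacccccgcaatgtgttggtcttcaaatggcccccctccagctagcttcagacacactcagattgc
TGACGTCA lies 83 to 76 bases before the start and occurs in 1.55% of windows. The same window holds CCAAT (in 33.8% of windows) and TTTGAA (in 16%), not capitalised. Neither TGANTCA (6.75% of windows) nor a single fixed form of the NF-kappaB motif (0.356%) was found in the 6 listed genes with a window. These were Cemip, Has1, Hyal1, Hyal2, Cd44 and Hmmr. At such shares most sets of 6 windows would hold neither, so nothing is read from their absence. Other forms of the NF-kappaB motif were not searched for.

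Has2 (chromosome 15, 56665627 to 56694539, minus strand) had 614 and 678 reads in the RM1 pair, 300 and 185 in the RM1536 pair, 223 in the bone library and 1092 in the lung library. These were 20.5 and 24 CPM, 12.1 and 5.99 CPM, 9.79 CPM and 43.1 CPM. Both RM1536 libraries lay below both RM1 libraries, bone lay between the RM1536 duplicates, and lung was the highest of the 6. The log2 difference of RM1536 from RM1 was -1.30 ± 0.37 (SE, n = 2 and 2), reaching -1.92 without RM1536 replicate a and -0.90 without replicate b. Has2 in lung stood 2.26 ± 0.42 above RM1536 (SE, n = 1 and 2; edgeR adjusted p = 0.269; DESeq2 adjusted p = 0.00167). It was 3.57 times the level of RM1536 a and 7.2 times that of b, and the log2 value ran from 1.86 without replicate b to 2.88 without replicate a. Against bone, the lung library had 4.4 times as much Has2 (counting interval 3.81 to 5.11), a log2 difference of bone from lung of -2.14 ± 0.53 (edgeR adjusted p = 0.413; DESeq2 adjusted p = 0.0212). With no filter on low counts edgeR also called Has2 in both comparisons (adjusted p = 3.97e-08 and 9.75e-05). That setting called 1299 and 754 genes over all, against 0 and 1 with the filter, so these calls are not particular to Has2.

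Fibroblast and stromal markers are set beside the Has2 value of lung, and they did not move together. All 8 markers have an entry, and their sum was 1026 CPM over total counts in lung, 953 in bone, 867 and 1109 in RM1536 and 1392 and 642 in RM1. Within the list, Col1a1 stood at 569 in lung against 0.791 in bone, 9.06 and 28.3 in RM1536 and 17.3 and 18.6 in RM1, and Pdgfra had 716 reads in lung against 318 in bone. Others were not highest in lung. Col3a1 was lowest there, at 389 CPM against 920 in bone, 779 and 991 in RM1536 and 1365 and 607 in RM1. Lum was also lowest in lung, and Dcn (22.9 in lung) and Pdgfrb (18.6) were each highest in 1 RM1536 library, at 59.2 and 60.7. Col1a2 had 7 reads in lung, 3 in bone, 16 and 32 in RM1536 and 9 and 3 in RM1. Thy1 had 0 reads in every library except RM1536 b, with 1. Their part in the Has2 difference was not tested. The antisense gene Has2os shares 182 exonic bases with Has2 and had 13 and 8 reads in the RM1 pair, 11 and 5 in the RM1536 pair, 7 in the bone library and 40 in the lung library. The strand setting of the counting is not given in the sources used here, so reads of the shared bases cannot be told apart.

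Has3 (chromosome 8, 106870242 to 106884566, plus strand) had 30 and 11 reads in the RM1 pair, 22 and 39 in the RM1536 pair, 12 in the bone library and 9 in the lung library, or 0.355 to 1.26 CPM. The groups overlapped. It shares 352 exonic bases with Chtf8 on the other strand, which had 1784 to 3934 reads, so its few reads are uncertain. No Has3 comparison passed, with edgeR adjusted p of 0.788 for bone against RM1536, 0.447 for lung against RM1536 and 0.888 for bone against lung.

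Per kilobase of exon, which allows levels of different genes to be compared, the leading synthase differed between the lines. Has2 made up 89.2% and 75.8% of the summed synthase level in RM1, where Has1 made up 7.9% and 23.4%. In RM1536 Has1 made up 66.9% and 60.7% and Has2 31.5% and 34.5%. Bone had the largest Has1 share, with 84.9% Has1 and 14.5% Has2. Lung had 60.5% Has1, close to the 60.7% of RM1536 b, and 39.2% Has2, above both RM1536 cultures. The summed level in lung was the highest, at 25.9 CPM per kilobase, against 15.9 in bone, 9.03 and 4.1 in RM1536 and 5.43 and 7.47 in RM1. With lengths from the longest transcript the Has1 share was 9.85% and 28% for the RM1 pair, 72% and 66.1% for the RM1536 pair, 87.8% for bone and 66.2% for lung, the same leading synthase in each library. These shares are descriptions with no test.

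**Figure D2:**
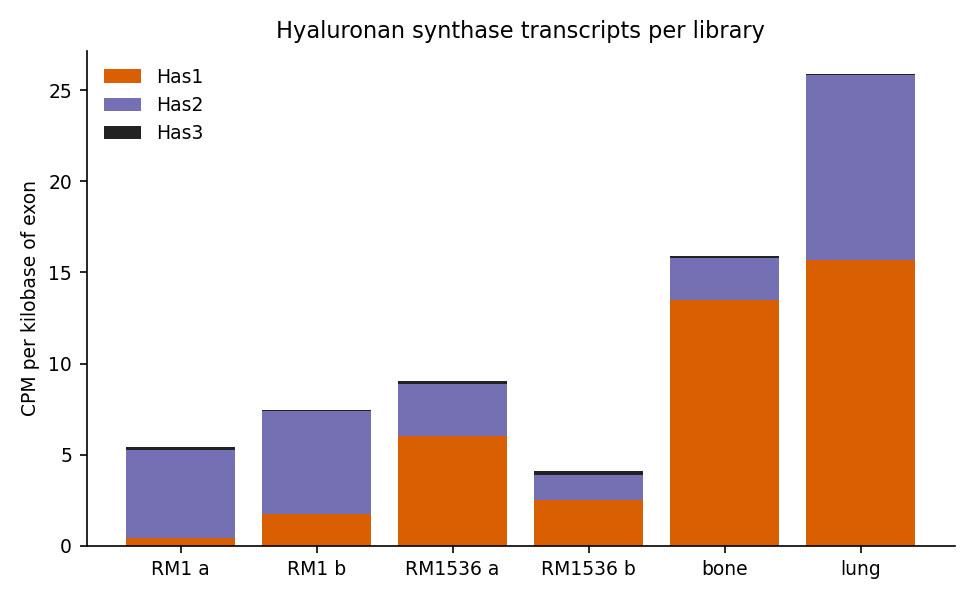
Stacked bars of Has1 (orange), Has2 (purple) and Has3 (black) level in CPM per kilobase of exon for each of the 6 libraries, 1 bar per library with no error. Has2 fills most of both RM1 bars, Has1 most of the other 4, and the lung bar is the tallest at 25.9.

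The hyaluronidase genes spanned a smaller range than Cemip. Hyal2, which codes for the cell-surface enzyme that cuts long chains, lies on chromosome 9 (107567945 to 107572779, plus strand). It stood at 49.2 and 32.5 CPM in the RM1 pair, 35.9 and 44.7 in the RM1536 pair, 39.9 in the bone library and 24.4 in the lung library. RM1, RM1536 and bone overlapped, and lung was the lowest of the 6. The log2 difference was -0.02 ± 0.27 for RM1536 against RM1, -0.02 ± 0.34 for bone against RM1536 (edgeR adjusted p = 0.999) and -0.72 ± 0.35 for lung against RM1536 (edgeR adjusted p = 0.413). Both of the near-zero differences changed sign when a culture library was left out.

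Hyal1, the lysosomal hyaluronidase, lies beside it (107576927 to 107581710, plus strand) and had 20 and 55 reads in the RM1 pair, 27 and 26 in the RM1536 pair, 100 in the bone library and 59 in the lung library. In CPM these were 0.668 and 1.95, 1.09 and 0.842, 4.39 and 2.33. RM1 and RM1536 overlapped, and both recovered libraries lay above all 4 cultured ones. Lung was not separated from RM1 b beyond counting error (ratio 1.2, counting interval 0.814 to 1.76). Bone stood 2.19 ± 0.68 above RM1536 (edgeR adjusted p = 0.351) and lung 1.27 ± 0.70 above it (edgeR adjusted p = 0.45), so neither passed. Hyal1 shares 1920 exonic bases with Naa80 (Nat6 in the table; 265 to 419 reads) and 159 with Hyal3 (2 to 6 reads) on its own strand, so how reads were divided between them is uncertain.

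Of the receptors, Cd44 was the most abundant of the 8 genes in every library. It lies on chromosome 2 (102811141 to 102901665, minus strand) and codes for the main surface receptor of hyaluronan. It stood at 716 and 612 CPM in the RM1 pair, 596 and 631 in the RM1536 pair, 843 in the bone library and 603 in the lung library. Bone was the highest and the other 5 lay close together, with RM1 and RM1536 overlapping. Bone stood 0.46 ± 0.25 above RM1536 (edgeR adjusted p = 0.64), a ratio of 1.37, and lung differed by -0.03 ± 0.25 (edgeR adjusted p = 0.973). With the 14825 to 21442 reads Cd44 had, counting error is small beside the spread between libraries. Gene counts do not tell the standard form from the variant forms made by alternative splicing.

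Hmmr (chromosome 11, 40701395 to 40733422, minus strand) codes for a hyaluronan-binding protein that also sits on the mitotic spindle. It stood at 75 and 45.5 CPM in the RM1 pair, 78.3 and 95.6 in the RM1536 pair, 63.3 in the bone library and 39.2 in the lung library. Both RM1536 libraries were above the rest, though RM1536 a only narrowly above RM1 a, and lung was lowest. The log2 difference was 0.53 ± 0.29 for RM1536 against RM1, -0.46 ± 0.36 for bone against RM1536 (edgeR adjusted p = 0.783) and -1.15 ± 0.38 for lung against RM1536 (edgeR adjusted p = 0.323). Without RM1 replicate b the first was 0.21, and without replicate a 0.90.

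A list of 14 mitosis genes, among them the spindle factor gene Tpx2 and the proliferation marker gene Mki67, had a median that followed Hmmr from library to library. Relative to its mean over the 6 libraries, Hmmr stood at 0.25 and -0.47 on the log2 scale in the RM1 pair (a, b), 0.31 and 0.60 in the RM1536 pair, 0.00 in the bone library and -0.69 in the lung library. The median of the 14 genes was 0.22, -0.48, 0.16, 0.74, 0.01 and -0.65 in the same order. In RM1536 against RM1, 13 of the 14 lay above 0, with a median of 0.52 where all 13832 genes had 0.02. All 14 lay below 0 in bone against RM1536 (median -0.50, all genes -0.03) and in lung against RM1536 (median -1.13, all genes -0.03). EdgeR called 0 of the 14 in each of the 4 comparisons. At an unadjusted p under 0.05 there were 2 in RM1536 against RM1, 1 in bone against RM1536, 8 in lung against RM1536 and 1 in bone against lung, where 23.0%, 9.92%, 13.8% and 8.47% of all genes tested were at that level. DESeq2 called Bub1 in the first and Brca1 in the third (1466 and 356 of 22081 genes over all), both named after their values were seen. The median of the list also differed between the duplicates of each line, and its part in the Hmmr values was not tested.

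**Figure D3:**
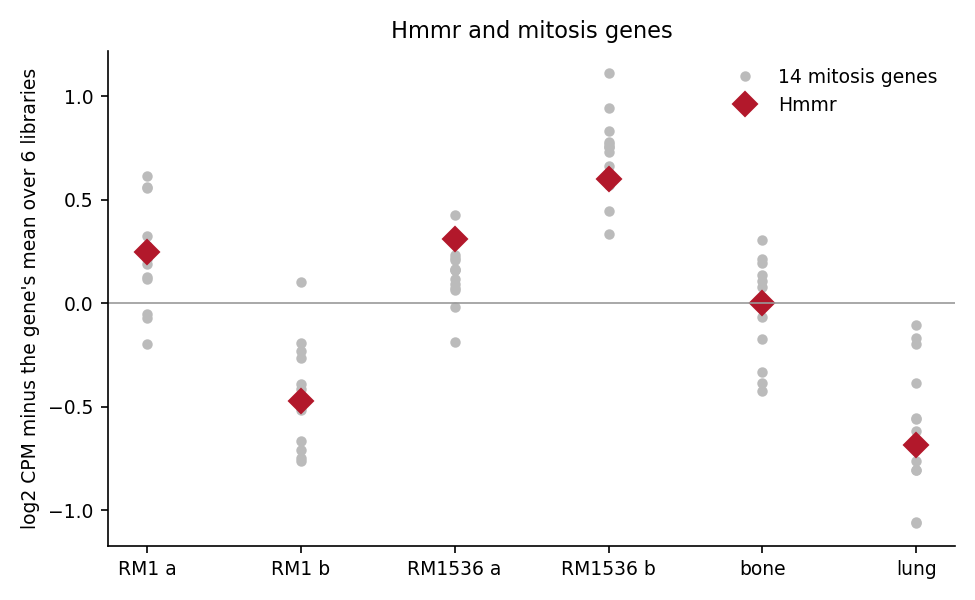
Log2 CPM minus the gene's own mean over the 6 libraries (vertical axis) for Hmmr (red diamonds) and 14 mitosis genes (grey points, 1 per gene) in each library. Hmmr lies within the range of the 14 genes in all 6 libraries, from -0.69 in lung to 0.60 in RM1536 b.

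The Hmmr promoter is printed because mitosis genes often carry CCAAT boxes. The window is chr11:40733438-40733687 on GRCm38.p6, minus strand, with capitals at ATTGG, the reverse complement of CCAAT.
Hmmr: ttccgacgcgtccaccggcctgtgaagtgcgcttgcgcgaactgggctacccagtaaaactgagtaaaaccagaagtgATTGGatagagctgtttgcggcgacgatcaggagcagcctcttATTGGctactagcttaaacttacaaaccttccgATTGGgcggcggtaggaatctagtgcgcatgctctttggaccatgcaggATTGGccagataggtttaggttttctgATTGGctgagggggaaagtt
CCAAT was found 5 times, on the opposite strand each time, the nearest 20 to 16 bases before the start. One match shares bases with a GGGCGG that is not capitalised. CCAAT occurs in 33.8% of all windows and in 12 of the 13 mitosis genes with a window. TTTGAA, also searched for, was not found in the Hmmr window and occurs in 5 of the 13. Its share of all windows is given above with Has1. The match is a description of letters only.

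Ordered by CPM per kilobase, Cd44 came first in every library. In RM1 it was followed by Hyal2, Hmmr, Has2, Has1, Hyal1, Has3 and Cemip, and in RM1536 by Hmmr, Hyal2, Has1, Has2, Cemip, Hyal1 and Has3. In bone Has1 moved to the place after Cd44 and Cemip came before Has2, while in lung Has1 and Has2 both came before Hyal2. Neighbours such as Hyal2 and Hmmr (14.9 and 13.8 CPM per kilobase in RM1 a) did not differ beyond the spread of the duplicates, and their order turned in RM1, bone and lung with lengths from the longest transcript, which also put Cemip above Hyal2 in bone.

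Over the 8 genes, edgeR called 1 in RM1536 against RM1 (Cemip), where 5.64% of all genes tested were called. At an unadjusted p under 0.05 there were 3 of 8, against 23.0% of all genes. Since that contrast helped to choose the list, nothing is read from the count. DESeq2 called 3 (Cemip, Has1 and Has2), where it called 1466 of 22081 genes over all, and nothing is read from that count either. In bone against RM1536 edgeR called 0 of 8 (background 0.0145%), with 2 at an unadjusted p under 0.05 (background 9.92%) and 1 called by DESeq2. In lung against RM1536 it called 0 of 8 (background 0%), with 3 at an unadjusted p under 0.05 (background 13.8%) and 1 called by DESeq2. In bone against lung it called 0 of 8 (background 0.00723%), with 2 at an unadjusted p under 0.05 (background 8.47%) and 1 called by DESeq2. DESeq2 called 369, 356 and 213 of 22081 genes over all in these comparisons, in the same order. The 22081 are all genes with any read, a wider set than edgeR tested, so the DESeq2 and edgeR shares are not alike. With 1 library each, bone and lung took their spread from the culture pairs, and few genes of any kind passed there in edgeR. The median log2 difference of the 8 genes was 0.29 in bone against RM1536 (all genes -0.03), 0.62 in lung against RM1536 (all genes -0.03) and 0.63 in bone against lung (all genes 0.02). The comparisons with RM1536 share its libraries.

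**Figure D4:**
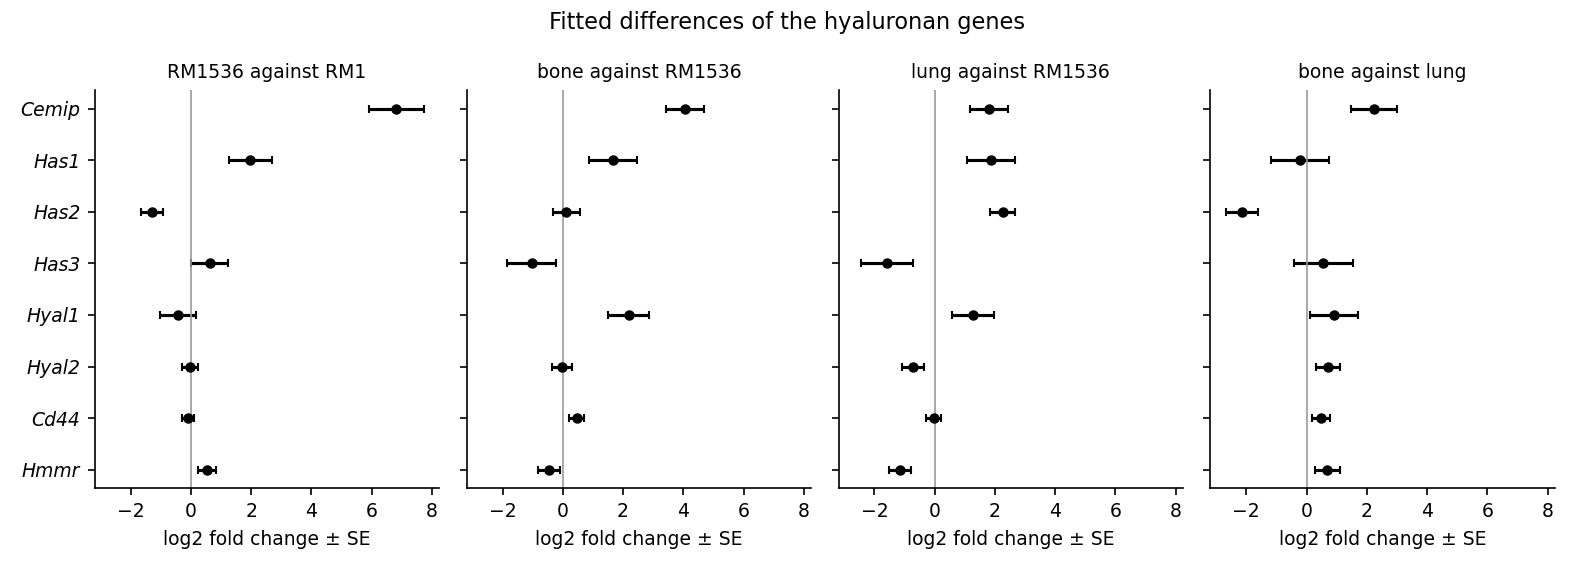
Fitted log2 fold change of each of the 8 genes (horizontal axis, error bars are ± 1 SE) in the 4 comparisons, 1 panel each, with 0 marked by a grey line. Cemip is far to the right in RM1536 against RM1 (6.82 ± 0.90) and in bone against RM1536 (4.05 ± 0.64), Has2 lies right of 0 in lung against RM1536 and left of it in bone against lung, and Cd44 runs from -0.11 to 0.48 over the 4 panels.

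Other genes of the pathway were taken from 6 lists of 67 genes, of which 62 had an entry and 45 were tested. EdgeR called 2 of the 45 in RM1536 against RM1, where 5.64% of all genes were called, and 0 in each of the other comparisons. Both were called as lower in RM1536 and belong to the proteins that bind or crosslink hyaluronan, with 6 tested genes. In the fit of all 6 libraries 4 of these 6 lay below 0. The median log2 difference of the 6 was -0.23 where all genes had 0.02. The 2 called genes code for heavy chains of inter-alpha-trypsin inhibitor, which are transferred onto hyaluronan. Itih5 stood at 5.34 and 3.51 CPM in the RM1 pair, 0.121 and 0 in the RM1536 pair, 0.0439 in the bone library and 0.0395 in the lung library (RM1536 over RM1 3 against 259 reads, ratio 0.0121, counting interval 0.00248 to 0.0357; edgeR adjusted p = 0.0233). Itih2 stood at 2.27 and 0.921 CPM in the RM1 pair, 0.0402 and 0.129 in the RM1536 pair, 0.0878 in the bone library and 0.632 in the lung library (5 against 94 reads, ratio 0.0555, interval 0.0176 to 0.134; edgeR adjusted p = 0.0493). The Itih2 call was lost with the CPM filter, without RM1 replicate a, without either RM1536 replicate and with the replicate block, and the Itih5 call was lost without RM1536 replicate b. The crosslinking proteoglycan gene Vcan was at 11 and 10 CPM in the RM1 pair, 16.5 and 34.5 in the RM1536 pair, 40.2 in the bone library and 15.8 in the lung library (RM1536 against RM1 1.28 ± 0.38; edgeR adjusted p = 0.116), and was called as higher by DESeq2, by edgeR without RM1536 replicate a and by edgeR with no filter on low counts.

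Of the 8 tested precursor sugar genes, edgeR and DESeq2 called 0 in each of the 4 comparisons. At an unadjusted p under 0.05 edgeR gave 1 in RM1536 against RM1, 1 in lung against RM1536 and 0 in the others (all genes 23.0% and 13.8% in these 2, 9.92% and 8.47% in the others). Ugdh, which makes UDP-glucuronic acid, stayed at 80.4 to 124 CPM and Uap1, which makes UDP-N-acetylglucosamine, at 70.9 to 81.1. Of 4 tested genes of other breakdown enzymes, both tools called 0. Gusb, coding for a lysosomal enzyme that trims hyaluronan fragments, had an unadjusted p under 0.05 in 3 of the 4 comparisons. Its log2 difference was 0.81 ± 0.27 for RM1536 against RM1 (edgeR adjusted p = 0.149). For lung against RM1536 it was -1.14 ± 0.35 (edgeR adjusted p = 0.323), and for bone against lung 0.98 ± 0.39 (edgeR adjusted p = 0.576). Of all genes, 23.0%, 13.8% and 8.47% were under 0.05 in these 3, which share libraries. Tmem2, which codes for a cell-surface hyaluronidase related to CEMIP, was at 69.7 and 45.6 CPM in the RM1 pair, 40.1 and 51.1 in the RM1536 pair, 51.1 in the bone library and 31.8 in the lung library, without the gap that Cemip showed between the lines. Of the partners and other ligands of CD44, both tools called 0 of 9 tested genes, with 2 at an unadjusted p under 0.05 in RM1536 against RM1, 0 in bone against RM1536 and 1 in each of the others (all genes 23.0%, 9.92%, 13.8% and 8.47%). Msn, coding for the linker moesin, ran from 660 to 1041 CPM. Spp1, coding for osteopontin, a further ligand of CD44, was at 1666 and 1867 CPM in the RM1 pair, 3724 and 2559 in the RM1536 pair, 3540 in the bone library and 4262 in the lung library.

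Of 6 other receptors 4 were tested and edgeR called 0, with 1 or 2 at an unadjusted p under 0.05 in each comparison, where all genes had 8.47% to 23.0%. DESeq2 called Tlr4 in RM1536 against RM1, Stab1 in bone against RM1536 and Layn in bone against lung. Over all genes it called 1466, 369 and 213 of 22081 in these comparisons. The lymphatic receptor gene Lyve1 had 0 reads in all 6 libraries, and the pattern receptor gene Tlr4 was at 57.4 and 69.6 CPM in the RM1 pair, 34.1 and 22.8 in the RM1536 pair, 28 in the bone library and 45.2 in the lung library. Stab1, coding for the scavenger receptor stabilin-1 of macrophages and sinusoidal endothelium, was at 1.4 and 1.2 CPM in the RM1 pair, 0.885 and 0.421 in the RM1536 pair, 11.3 in the bone library and 2.96 in the lung library. Bone stood 4.12 ± 0.54 above RM1536 (SE, n = 1 and 2; edgeR adjusted p = 0.0843). Leukocyte markers stood beside it: of 13 with an entry, the sum was 26 CPM over total counts in bone, 23.2 in lung, 12.4 and 4.69 in RM1536 and 11.6 and 46.7 in RM1. Most of each sum was Cd68, at 19.7 in bone, 19 in lung, 11.5 and 3.66 in RM1536 and 9.5 and 44.6 in RM1. Lyz2 had 61 reads in bone, 73 in lung and 0 in the 4 cultured libraries, while Ptprc had 0 in bone and lung. Adgre1 (4 and 5 reads in bone and lung), Itgam (2 and 1) and Tyrobp (4 and 0) also had 0 in the cultures. Csf1r had 5 and 4 reads, against 0 to 2 in the cultures. Laptm5 had 55 reads in bone and 7 in lung, but 46 and 54 in RM1. Their part in the Stab1 value was not tested.

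The genes most like Cemip, Has2, Cd44 and Hmmr in pattern were found by Pearson's r of log2(CPM + 1) over the 6 libraries among 9878 genes, as a description of these libraries. For Cemip they were Mfsd1 (r = 0.994), Smarcal1, Slc4a2, Itm2a and Lmo4. Itm2a stood at 2.74 and 3.15 CPM in the RM1 pair, 11.6 and 8.61 in the RM1536 pair, 33.2 in the bone library and 16.9 in the lung library, the order of Cemip with a smaller range. For Has2 they were Zc3hav1 (r = 0.994), Ppm1h, Nucb1, Rnf214 and Xpa. For Cd44 they were Sox4 (r = 0.979), Stk24, Ttc14, Spx and Insig1, of which Spx stood at 53.7 CPM in bone and at 0.906 to 8.05 in the others. For Hmmr they were Brip1 (r = 0.996), Hmgb1, Rrm2, Fbxo5 and Sapcd2. Rrm2, the ribonucleotide reductase subunit gene used in DNA synthesis, stood at 204 and 81.3 CPM in the RM1 pair, 188 and 296 in the RM1536 pair, 144 in the bone library and 57.6 in the lung library.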

How the data were processed

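Messenger RNA was measured in 6 libraries. The deposited values are raw counts for each gene, which the authors made with TopHat2 2.1.10, HTSeq and edgeR on GRCm38, per the submitters' processing notes, which give no role for each tool. The sources used here do not give the strand setting, the HTSeq mode or the release of the annotation. A row with no name (0.00626% to 0.0083% of counts) was left out. Libraries were prepared with the NEBNext Ultra kit from RNA with a RIN above 6.8, per the labels' protocols.

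Counts were fitted in edgeR 4.0.16 (R 4.3.3): filterByExpr by group, TMM, quasi-likelihood fit and test, 1 model of 4 groups over 6 libraries, Benjamini-Hochberg adjustment over 13832 genes, call at 0.05. The SE is the log2 fold change over the square root of F. The test was tested on simulated data. Residual degrees of freedom were 2, the biological coefficient of variation 0.269. The duplicates differed beyond counting error (chi-square per degree of freedom 89.9 in RM1 and 91.1 in RM1536). Lengths and positions come from GENCODE M21 and promoter windows from RefSeq (GRCm38.p6; 6 of 8 genes matched). Counting intervals are exact 95% (Clopper-Pearson), for counting error only, since reads are not independent molecules.

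Genes named are the 8 listed, pathway genes called or highest in mean CPM (up to 4 per list), the 5 most correlated genes for Cemip, Has2, Cd44 and Hmmr, and overlapping or neighbouring genes. Members and lists were chosen with earlier results of these data known. Alternatives were DESeq2 1.42.0, RLE factors, no filter, a CPM filter of 1 in 2 libraries, leaving out each culture library, a replicate block and other gene lengths. The blocked fits used the 4 culture libraries. DESeq2 calls are set beside all 22081 genes with any read, and its own filter can leave some of these without an adjusted p. Some marker genes are not reported here.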

Additional observations from a re-analysis of the deposited data

How the results depend on the processing

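For RM1536 against RM1, genes called over all tested numbered 780, and 2394 with no filter on low counts, 1466 with DESeq2, 295 with the replicate block and 3165 with the crossed pairing, which was added after seeing the data because the a minus b differences of the lines were negatively correlated (r = -0.46 over 13832 genes). Leaving out a culture library gave 196 (without RM1536 replicate b) to 513, with 427 without RM1536 replicate a, 486 without RM1 replicate a and 513 without RM1 replicate b. The letters a and b name libraries only and are not known to pair them. Of the 8 genes, 1 was called, and 3 with no filter, 3 with DESeq2, 4 with the crossed pairing and 1 to 2 with a library left out (2 without RM1 replicate b). Of the pathway lists, 2 were called, and 11 with no filter, 5 with DESeq2, 1 with the CPM filter, 1 with the replicate block, 16 with the crossed pairing and 0 (without RM1536 replicate b) to 3 (without RM1 replicate b) with a library left out. For bone against RM1536, genes called numbered 2, and 859 with no filter, 369 with DESeq2 and 0 to 128 with a library left out (128 without RM1 replicate b, 32 without RM1 replicate a, 0 without either RM1536 replicate). Of the 8 genes, 0 were called, and 3 with no filter, 1 with DESeq2 and 0 to 1 with a library left out. Of the pathway lists, 0 were called, and 2 with no filter, 1 with DESeq2 and 0 to 1 with a library left out. For lung against RM1536, genes called numbered 0, and 1299 with no filter, 356 with DESeq2 and 0 to 7 with a library left out (7 without RM1 replicate b). Of the 8 genes, 0 were called, and 4 with no filter and 1 with DESeq2. Of the pathway lists, 0 were called, and 16 with no filter and 1 with DESeq2. For bone against lung, genes called numbered 1, and 754 with no filter, 213 with DESeq2, 0 with the CPM filter and 1 to 32 with a library left out (32 without RM1 replicate b). Of the 8 genes, 0 were called, and 2 with no filter and 1 with DESeq2. Of the pathway lists, 0 were called, and 2 with no filter and 1 with DESeq2. The cause of these shifts was not tested. Some log2 values close to 0 changed sign. With each culture library left out in turn, RM1536 against RM1 ran from -1.05 to 0.52 for Hyal1 (0.52 without RM1 replicate b) and from -0.29 to 0.28 for Hyal2 (0.28 without RM1 replicate a, 0.10 without RM1536 replicate a). Bone against RM1536 ran from -0.30 to 0.72 for Has2 and from -0.16 to 0.15 for Hyal2, and lung against RM1536 from -0.04 to 0.04 for Cd44, with -0.30, 0.15 and 0.04 without RM1536 replicate b. Cd44 in lung was 0.00 with RLE factors, with no filter and with DESeq2. Of 276 values of the 8 genes under an alternative, 246 kept direction and side of the threshold, 21 newly passed it and 9 changed sign. Has3 was not tested under the CPM filter. Depth limits Cemip in RM1, Has3 and Hyal1, which rest on few reads.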

Other observations

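Gfpt2, which codes for an enzyme of the hexosamine pathway that feeds UDP-N-acetylglucosamine synthesis, was singled out after its values were seen. It stood at 0.0668 and 1.24 CPM in the RM1 pair, 13 and 6.31 in the RM1536 pair, 21.9 in the bone library and 30.1 in the lung library, the same order of groups as Has1. RM1536 held 517 reads against 37 in RM1, a ratio of 14.6 (counting interval 10.4 to 20.9). The RM1 duplicates themselves differed 18.5-fold, with 2 and 35 reads (counting interval 4.77 to 159). The log2 fold change was 3.89 ± 0.96 (SE, n = 2 and 2; edgeR adjusted p = 0.0785), which does not pass 0.05. EdgeR called it without RM1 replicate b, with no filter on low counts and with the crossed pairing. Its paralog Gfpt1 stood at 125 to 179 CPM in the 6 libraries. Layn, coding for the hyaluronan receptor layilin, had the opposite order of the recovered libraries to Stab1, at 24.7 CPM in bone and 64.5 in lung, with 35.6 and 30.1 in RM1 and 56.4 and 48.4 in RM1536 (bone against lung -1.38 ± 0.31; edgeR adjusted p = 0.361, though DESeq2 called it).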
